A study of Homo sapiens with 6 samples.

Results

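Genes of the RING, F-box and Kelch families of ubiquitin ligases were followed in MDA-MB-231, an established human line of triple-negative breast cancer, after treatment with shikonin, a plant naphthoquinone. The members are the rows of the authors' deposited table whose gene symbol is RNF, TRIM, FBXL, FBXO, FBXW or KLHL followed by a number only. There are 93 of them among 7150 rows: 24 RNF, 24 TRIM, 32 F-box and 13 KLHL genes. The groups were 3 libraries of wild-type cells given 0.5 µM shikonin for 24 h and 3 libraries of wild-type cells labelled as having no treatment, with no vehicle named. The labels write the unit with a lower-case m, and it is taken here to mean micromolar. No label states whether a group's libraries are from different cultures: p-values cover only the spread between these libraries, which may be technical. The table gives 1 mean, 1 fold change and 1 test per gene, and holds 0 columns of values per sample, so depth per library is unknown. All rows of the authors' deposited table pass 1.5-fold and an adjusted p of 0.05 in the authors' DESeq2 Wald test, and a positive log2 fold change is read as higher in shikonin from the authors' mark of direction.

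Ubiquitin ligases choose which proteins are tagged with ubiquitin, a small protein whose chains mark their carrier for the proteasome or change its partners. RNF and TRIM proteins usually carry a RING domain, which binds the ubiquitin-loaded conjugating enzyme directly, and TRIM proteins add B-box and coiled-coil segments and are known for antiviral signalling. F-box and KLHL proteins hold no RING of their own: they are exchangeable substrate receptors of cullin-RING ligases, F-box proteins through SKP1 on CUL1 and KLHL proteins through a BTB domain on CUL3. In cancer cells F-box receptors are known for timing the cell cycle and limiting oncoprotein levels. The amount of a receptor's message says nothing by itself of ligase activity or of protein level.

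Listed ligase genes were mostly lower in shikonin. By the authors' deposited table, 25 of the 93 members were higher and 68 lower, so 26.9% were higher (exact 95% binomial interval 18.2 to 37.1), against 50.8% of all 7150 listed genes. Their median log2 fold change was -0.80 in the authors' deposited table, against 0.60 over all listed genes. Neither comparison is matched for transcript length. The median mature length was 3856 nt in protein-coding members and 3294 nt over listed protein-coding genes. Over those listed genes, Spearman's rho between length and log2 fold change was -0.70. Ranked by log2 fold change within length deciles of those genes, the members had a median percentile of 46.6, where 50.1 is the median of all. The 4 families gave 7 of 24 RNF genes higher (29.2%, 12.6 to 51.1), 7 of 24 TRIM genes (29.2%, 12.6 to 51.1), 9 of 32 F-box genes (28.1%, 13.7 to 46.7) and 2 of 13 KLHL genes (15.4%, 1.92 to 45.4). These 4 intervals overlap widely, and the families are not shown to differ in this share. Medians of the log2 fold change were -0.72 for RNF, -0.81 for TRIM, -0.75 for F-box and -0.98 for KLHL genes in the authors' deposited table. Among the F-box genes, 1 of 9 FBXL, 7 of 18 FBXO and 1 of 5 FBXW genes were higher.

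A large part of all genes tested was listed. The adjusted p-values of the authors' deposited table imply about 14255 genes tested, of which 50.2% were listed, 25.5% as higher and 24.7% as lower. Those changed at least 2-fold made up 31.1% of the genes tested, 16.4% higher and 14.6% lower. At that size 48 members remained, 14 higher and 34 lower, or 51.6% of the members against 61.9% of all listed genes. A symbol could become a member only by being listed, so the members are all called by construction. Of the 243 protein-coding genes that GENCODE 29 names by these patterns, 92 were listed (37.9%), against 34.7% of all 19951 protein-coding genes. By family the listed share was 24 of 78 RNF genes (30.8%), 23 of 66 TRIM genes (34.8%), 32 of 62 F-box genes (51.6%) and 13 of 37 KLHL genes (35.1%). Unlisted genes either missed a threshold or were not tested, and which of these applies is not held.

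**Figure D1:**
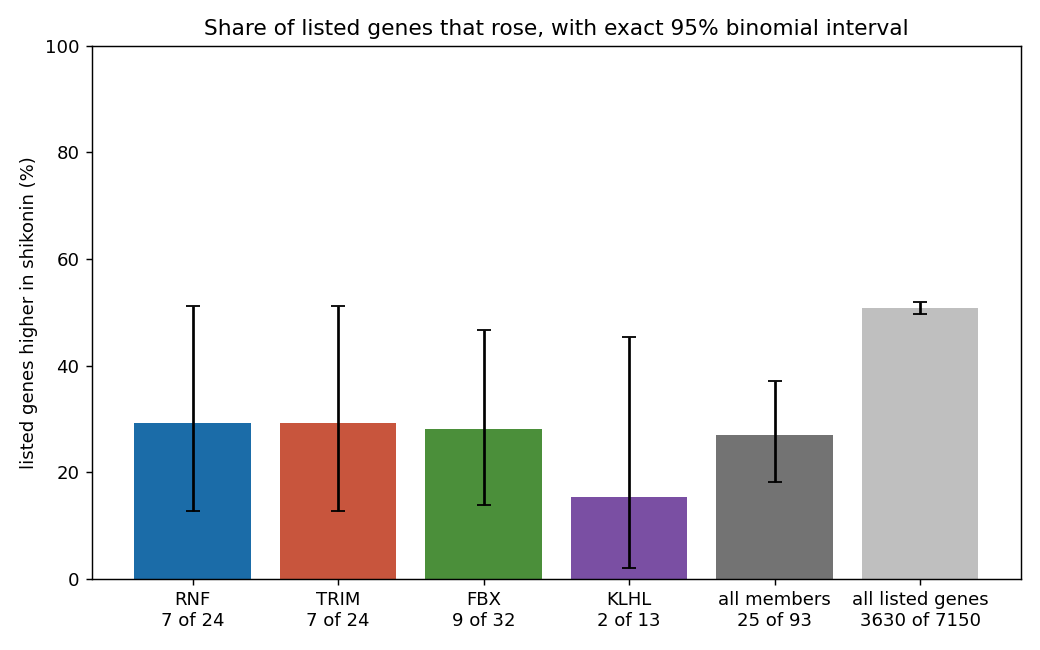
Percentage of listed genes that were higher in shikonin, for each of the 4 families, all members and all listed genes, with exact 95% binomial intervals as whiskers and the counts under each bar. All 4 families lie between 15.4% and 29.2%, against 50.8% for all listed genes. The bars are not matched for transcript length.

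The split was also counted under another scaling. By its construction only higher genes can leave the count, and unlisted genes cannot enter as lower, so the share higher could not rise. When the log2 fold changes were lowered by 0.39, so that the implied totals of the listed genes were equal in both groups, 14 members stayed past 1.5-fold as higher and 68 as lower. The share higher became 19.0% for TRIM genes (4 of 21) and 11.5% for F-box genes (3 of 26), while over all listed genes it became 40.5%. Implied group means of single genes were solved from the listed mean and fold on the assumption that 3 and 3 libraries weigh equally, and are in normalized counts.

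Of the 24 RNF genes, 17 fell. RNF213, a giant ATPase with a RING domain that is known as a moyamoya disease susceptibility gene, had an implied mean of 933 in shikonin and 4016 in control. It was 4.30-fold lower (95% interval 3.21 to 5.77, adjusted p = 3.38e-21) by the authors' deposited table. RNF216, a RING-between-RING ligase also called TRIAD3, had an implied mean of 526 in shikonin and 1588 in control. Its log2 fold change in the authors' deposited table was -1.60 ± 0.14 (standard error, adjusted p = 8.80e-30). RNF168, which ubiquitinates histones at double-strand breaks, and RNF169, which binds those marks, both fell: by the authors' deposited table RNF168 changed by -0.79 ± 0.19 and RNF169 by -1.56 ± 0.20 on the log2 scale. RNF8, which acts before RNF168 at breaks, was not listed. RNF40, which joins RNF20 in a histone ligase of transcribed genes, changed by -0.77 ± 0.15 in the authors' deposited table, and RNF20 was not listed.

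RNF111, known as Arkadia and an amplifier of SMAD signalling, was 2.24-fold lower (1.61 to 3.11) by the authors' deposited table. RNF125, which limits signalling by the RNA sensor RIG-I, had implied means of 69.7 in shikonin and 158.7 in control, and changed by -1.19 ± 0.34 in the authors' deposited table. RNF224 changed by -1.56 ± 0.61 in the authors' deposited table, on implied means of 11.3 in shikonin and 33.3 in control, so its fold is poorly fixed (1.29 to 6.72). Another 8 genes that fell, RNF24, RNF152, RNF207, RNF145, RNF6, RNF217, RNF13 and RNF139, had log2 fold changes of -1.07 to -0.59 in the authors' deposited table. RNF139, an endoplasmic reticulum ligase also called TRC8, and RNF13, an endosomal ligase, lay nearest the fold threshold, at -0.59 ± 0.25 and -0.60 ± 0.20 in the authors' deposited table.

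Of the 7 RNF genes that rose, 6 had mature transcripts under 2000 nt. RNF181 (chromosome 2, 85595725 to 85597613, 5 exons) had an implied mean of 3070 in shikonin and 889 in control, and was 3.45-fold higher (2.78 to 4.28, adjusted p = 1.29e-27) by the authors' deposited table. RNF5, a ligase of the endoplasmic reticulum membrane that takes part in clearing misfolded proteins, had an implied mean of 3805 in shikonin and 1687 in control. By the authors' deposited table it rose by 1.17 ± 0.16 on the log2 scale, and a processed copy, RNF5P1, can share its reads. RNF208, known to mark vimentin for degradation in breast cancer cells, was 2.39-fold higher (1.66 to 3.44) by the authors' deposited table, while VIM, the vimentin gene, had a log2 fold change of 0.80 there. RNF122 and RNF227 changed by 1.23 ± 0.32 and 0.90 ± 0.24 in the authors' deposited table. RNF223 rose to an implied mean of 70.7 in shikonin, against 3.79 in control, or 18.6-fold (8.05 to 43.2) by the authors' deposited table. RNF225, a single-exon gene, was at 8.77 in shikonin and 0.883 in control, with a log2 fold change of 3.31 ± 1.52 and an adjusted p of 0.0489 in the authors' deposited table. The 2 largest RNF folds thus rest on control means below 10.

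**Figure D2:**
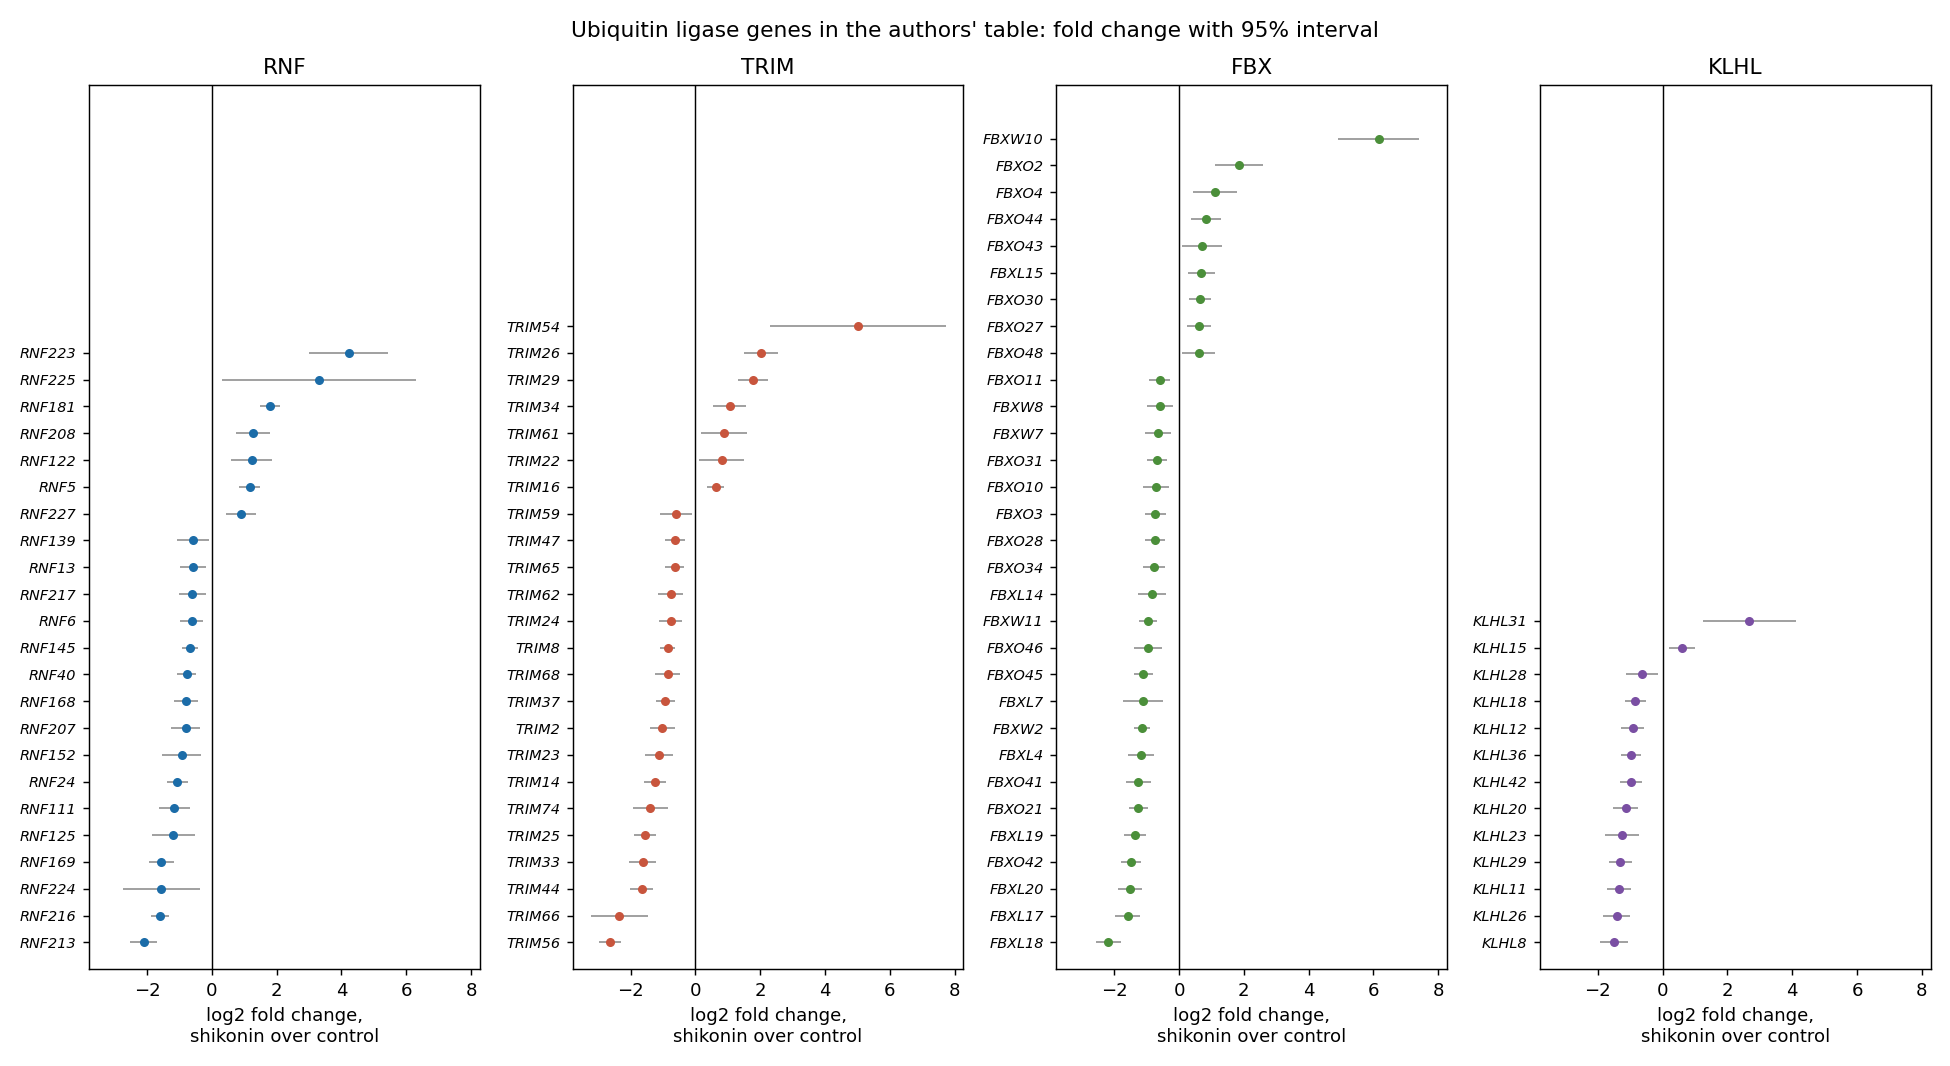
Log2 fold change of each member reported here, shikonin over control, from the authors' deposited table, in 1 panel per family, with normal 95% intervals from the listed standard errors as bars. FBXW10, at 6.16, is the member farthest to the right, and TRIM56, at -2.63, the one farthest to the left.

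Of the 24 rows named TRIM, 17 fell, with TRIM56 and TRIM25, genes of innate immune signalling, among them. TRIM56, which promotes signalling by the DNA sensor adaptor STING, lies on chromosome 7 (101085439 to 101097967) and had an implied mean of 176 in shikonin and 1090 in control. It was 6.20-fold lower (4.87 to 7.90, adjusted p = 5.40e-47) by the authors' deposited table, the largest fall of the 93 members. TRIM25, which activates RIG-I, had an implied mean of 1573 in shikonin and 4622 in control, and changed by -1.56 ± 0.18 in the authors' deposited table. RNF135, another ligase of RIG-I, was not listed. The RIG-I gene itself, under the symbol DDX58, changed by -0.71 ± 0.15 in the authors' deposited table. TRIM14, which lacks a RING domain, and TRIM23, which carries a GTPase domain, changed by -1.25 ± 0.18 and -1.13 ± 0.22 in the authors' deposited table. TRIM8 held the largest mean of the members: its implied mean was 6850 in shikonin and 12395 in control, a fall of 1.81-fold (1.54 to 2.12) by the authors' deposited table.

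TRIM33 and TRIM24 belong to the TIF1 group, which joins a RING domain to chromatin-reading domains, and by the authors' deposited table they changed by -1.62 ± 0.21 and -0.77 ± 0.18. TRIM28, the third gene of that group, was not listed. TRIM66, related in structure, was at an implied 17.3 in shikonin and 88.5 in control and changed by -2.35 ± 0.45 in the authors' deposited table. The opposite strand of TRIM66 holds part of the ribosomal protein gene RPL27A (284 bp of overlap), which changed by 1.61 in the authors' deposited table. TRIM44, which lacks a RING, and TRIM37, a centrosome and histone ligase, changed by -1.66 ± 0.18 and -0.93 ± 0.14 in the authors' deposited table. TRIM47 and TRIM65 lie 1759 bp apart on chromosome 17 and had nearly equal log2 fold changes, -0.63 ± 0.16 and -0.64 ± 0.15 in the authors' deposited table. TRIM59, TRIM62, TRIM68 and TRIM2 filled the range from -0.60 to -1.02 in the authors' deposited table. The row named TRIM74, at -1.40 ± 0.28 in the authors' deposited table, carries the Ensembl identifier that GENCODE 29 and the current name table give to the pseudogene STAG3L3, so which gene it measures is uncertain. Without it 7 of 23 TRIM genes were higher (30.4%).

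TRIM26, TRIM29 and TRIM54 led the TRIM genes that rose. TRIM26, in the major histocompatibility region of chromosome 6 (30184455 to 30213427), had an implied mean of 728 in shikonin and 179 in control, and was 4.06-fold higher (2.85 to 5.79, adjusted p = 8.81e-14) by the authors' deposited table. TRIM29, a gene of basal and squamous epithelia whose product lacks a RING, had an implied mean of 271 in shikonin and 79.5 in control. Its log2 fold change in the authors' deposited table was 1.77 ± 0.24. TRIM54, a muscle ligase also called MURF3, was at 18.9 in shikonin and 0.585 in control, and its 32.3-fold difference in the authors' deposited table has an interval of 4.97 to 211. TRIM34 and TRIM22 are interferon-inducible neighbours 45290 bp apart on chromosome 11, and changed by 1.06 ± 0.26 and 0.81 ± 0.35 in the authors' deposited table. A read-through gene, TRIM6-TRIM34, overlaps TRIM34, so its reads cannot be fully assigned. TRIM61 and TRIM16 changed by 0.87 ± 0.36 and 0.63 ± 0.13 in the authors' deposited table. TRIM16 lacks a RING and is known in autophagy of damaged endomembranes, and its near-copy TRIM16L changed by 0.85 ± 0.15 in the authors' deposited table.

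Of the 32 F-box genes, 23 fell, among them receptors with textbook substrates. FBXW7, the receptor for cyclin E, MYC, JUN and NOTCH1, had an implied mean of 194 in shikonin and 303 in control, and changed by -0.64 ± 0.20 (adjusted p = 0.00279) in the authors' deposited table. FBXW11, one of the β-TrCP receptors for β-catenin and the NF-κB inhibitor IκBα, had an implied mean of 1147 in shikonin and 2225 in control and changed by -0.96 ± 0.15 in the authors' deposited table. Its paralogue BTRC, which the symbol rule leaves out, changed by -1.50 ± 0.19 in the authors' deposited table. FBXO11, the receptor for BCL6, changed by -0.59 ± 0.17 in the authors' deposited table, and BCL6 by 0.72 ± 0.21. FBXW8, which pairs with CUL7, and FBXO31 changed by -0.59 ± 0.21 and -0.68 ± 0.16 in the authors' deposited table. FBXO45, a receptor that works with another RING protein in place of the usual scaffold, changed by -1.10 ± 0.15 in the authors' deposited table, and FBXW2 by -1.14 ± 0.13. NOTCH1 changed by -1.89 ± 0.18 in the authors' deposited table, and of the cyclin E genes CCNE2 changed by 0.82 ± 0.20 there. CCNE1, MYC, JUN and CTNNB1 were not listed.

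The 3 largest falls of the F-box family were of FBXL genes. FBXL18 had an implied mean of 453 in shikonin and 2051 in control, and was 4.52-fold lower (3.46 to 5.91, adjusted p = 7.34e-27) by the authors' deposited table. FBXL17, a quality control receptor for misassembled BTB dimers, and FBXL20 changed by -1.59 ± 0.19 and -1.51 ± 0.19 in the authors' deposited table. FBXL19, which carries a CpG-binding zinc finger, and FBXL4, a mitochondrial protein that restrains mitophagy, changed by -1.36 ± 0.17 and -1.17 ± 0.21 in the authors' deposited table. FBXL15 was the only FBXL gene listed as higher, at 0.69 ± 0.21 in the authors' deposited table. FBXO42 changed by -1.48 ± 0.16 in the authors' deposited table, and FBXO21 and FBXO41 by -1.25 each. The other F-box genes that fell, FBXL7, FBXO46, FBXL14, FBXO34, FBXO28, FBXO3 and FBXO10, had log2 fold changes of -1.11 to -0.72 in the authors' deposited table.

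FBXO2, FBXO44 and FBXO27 belong to a group of 5 genes that share the F-box-associated domain, and FBXO2 and FBXO27 are known to bind sugar chains of misfolded glycoproteins. This grouping was made after the values were seen. FBXO2 had an implied mean of 207 in shikonin and 57.6 in control and was 3.59-fold higher (2.16 to 5.96, adjusted p = 2.63e-06) by the authors' deposited table. FBXO44 and FBXO27 changed by 0.83 ± 0.23 and 0.62 ± 0.19 in the authors' deposited table, while FBXO6 and FBXO17 were not listed. Over all genes tested the listed share was 50.2%, and over all annotated protein-coding genes 34.7%. Of listed genes 50.8% were higher. With equal implied totals FBXO2 stood at 1.45. FBXO44 and FBXO27 then stood at 0.44 and 0.23, no longer past the fold threshold. FBXO2 and FBXO44 overlap by 1411 bp on opposite strands of chromosome 1, and no source used here says that reads were counted by strand, so their reads cannot be fully told apart. FBXO4, FBXO43, FBXO30 and FBXO48 changed by 1.10 ± 0.35, 0.72 ± 0.32, 0.64 ± 0.17 and 0.60 ± 0.25 in the authors' deposited table. FBXO43, also called EMI2, is known as an inhibitor of the anaphase-promoting complex in eggs.

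FBXW10 had the largest change of the 93 members. Its function is little described. FBXW10 (chromosome 17, 18744024 to 18779349, 14 exons) had an implied mean of 146 in shikonin and 2.04 in control, and was 71.5-fold higher (29.9 to 171, adjusted p = 1.32e-20) by the authors' deposited table. CDRT1, also named FBXW10B, is its near-copy on the same chromosome and changed by 3.95 ± 0.39 in the authors' deposited table, so reads may be split or shared between them. The window from 250 bases before to 50 after the FBXW10 start held TTCNNGAA followed at once by NNTTC, which makes 3 alternating units of the heat shock element bound by HSF1, and a separate TTCNNGAA nearer the start. That 3-unit motif, searched on both strands, was in 133 of 27305 RefSeq promoters (0.487%), and in 1 of the 78 members with an entry. The FBXW10 window held 36.7% G and C, against medians of 58.3% over all promoters and 66.8% over the members. The share of 0.487% is not matched for this. RNF181, the RNF gene with the smallest adjusted p among those higher, held a match of TGACNNNGC, the letters of the antioxidant response element bound by NRF2, which 15 of 78 members and 13.6% of all promoters hold. RNF168, which fell, held a match of both GAANNTTC and TGACNNNGC. The promoters of a gene with the largest rise, a well expressed gene that rose and one that fell with the same letters are given from RefSeq (GRCh38.p14), 5′ to 3′, with those matches in capitals. They lie at chr17:18743804-18744103 on the plus strand, chr2:85595495-85595794 on the plus strand and chr3:196503719-196504018 on the minus strand.
FBXW10: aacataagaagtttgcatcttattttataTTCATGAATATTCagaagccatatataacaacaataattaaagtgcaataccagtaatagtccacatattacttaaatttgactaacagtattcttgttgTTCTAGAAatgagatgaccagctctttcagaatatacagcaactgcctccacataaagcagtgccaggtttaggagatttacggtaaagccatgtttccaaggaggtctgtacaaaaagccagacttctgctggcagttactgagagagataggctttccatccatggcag
RNF181: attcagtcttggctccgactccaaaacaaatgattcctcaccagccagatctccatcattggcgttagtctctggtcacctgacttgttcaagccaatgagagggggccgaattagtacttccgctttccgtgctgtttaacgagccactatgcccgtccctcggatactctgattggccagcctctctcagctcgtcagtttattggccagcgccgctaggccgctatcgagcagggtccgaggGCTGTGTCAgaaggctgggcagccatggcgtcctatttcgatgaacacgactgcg
RNF168: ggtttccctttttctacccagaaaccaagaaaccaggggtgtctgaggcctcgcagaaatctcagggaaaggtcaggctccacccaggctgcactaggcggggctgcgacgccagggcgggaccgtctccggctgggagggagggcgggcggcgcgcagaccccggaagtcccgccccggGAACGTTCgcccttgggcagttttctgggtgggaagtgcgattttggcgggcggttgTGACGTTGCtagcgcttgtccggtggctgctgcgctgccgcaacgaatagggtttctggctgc
A match is a run of letters and shows no binding. Over the members, 1 of 19 higher and 2 of 59 lower genes with an entry held GAANNTTC, against 6.87% of all promoters, and TTCNNGAA was in 2 of 19 and 1 of 59, against 7.84%. TGATGNAAN, an element bound by ATF4, was in 1 of the 78, TRIM2, against 3.67% of all promoters.

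KLHL genes fell almost throughout the list, 11 of 13. KLHL8, KLHL26, KLHL11 and KLHL29 had the largest falls, by the authors' deposited table, at -1.49 ± 0.22, -1.42 ± 0.21, -1.34 ± 0.19 and -1.30 ± 0.18. KLHL20, a receptor for the death-associated kinase DAPK1, had an implied mean of 201 in shikonin and 444 in control, and changed by -1.14 ± 0.20 in the authors' deposited table. DAPK1 itself changed by -0.68 ± 0.20 in the authors' deposited table. KLHL12, which directs ubiquitin to the COPII coat protein SEC31 and to Dishevelled, was 1.90-fold lower (1.48 to 2.44) by the authors' deposited table. KLHL18, a receptor for the mitotic kinase Aurora A, changed by -0.84 ± 0.16 in the authors' deposited table, while AURKA changed by 0.61 ± 0.12. KLHL42, KLHL36 and KLHL28 changed by -0.98 ± 0.17, -0.97 ± 0.16 and -0.64 ± 0.25 in the authors' deposited table. KLHL23, at -1.25 ± 0.27 in the authors' deposited table, overlaps PHOSPHO2 on the same strand.

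KLHL31 and KLHL15 were the listed exceptions. KLHL31, a gene known from skeletal muscle, was at an implied 29.8 in shikonin and 4.65 in control, with a log2 fold change of 2.68 ± 0.74 by the authors' deposited table. KLHL15, an adaptor that directs CUL3 to a phosphatase subunit and to the repair factor CtIP, was at 898 in shikonin and 595 in control, and changed by 0.59 ± 0.21 in the authors' deposited table, just past the fold threshold. With equal implied totals KLHL15 stood at 0.20 and was no longer past that threshold. Of 8 genes of these families known from muscle, a group made after the values were seen, TRIM54, KLHL31 and FBXO30 were listed, each higher. TRIM55, TRIM63, KLHL40, KLHL41 and FBXO32 were not listed, and whether they were tested is not held. Over all genes tested the listed share was 50.2%, and over all annotated protein-coding genes 34.7%. Of listed genes 50.8% were higher. Implied control means were 0.585 for TRIM54 and 4.65 for KLHL31. With equal implied totals FBXO30 stood at 0.25, no longer past the fold threshold.

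Of 13 genes of the cullin-RING core, 9 were listed, 4 higher and 5 lower: the 5 lower ones are all cullins and the 4 higher ones are adaptors or the RING subunit. Of all genes tested 50.2% were listed, and of all annotated protein-coding genes 34.7%. How many genes of this list were tested is not held. Of listed genes 50.8% were higher, and the split of this list is near that of all listed genes. Mature lengths differ too: 1188 nt for RBX1, 991 nt for ELOB, 1976 nt for ELOC and 9474 nt for SKP1. The listed cullins had 3064 to 7780 nt. Of listed protein-coding genes under 2000 nt, 95.2% were higher. The part of length in the split by role was not tested. CUL1, the scaffold of F-box receptors, was 1.91-fold lower (1.56 to 2.33) by the authors' deposited table, with an implied mean of 1105 in shikonin and 2112 in control. CUL5 and CUL9 changed by -1.31 ± 0.19 and -1.05 ± 0.14 in the authors' deposited table, and CUL4B and CUL7 by -0.68 ± 0.16 and -0.59 ± 0.14. CUL3, the scaffold of KLHL receptors, was not listed. SKP1, which joins F-box proteins to CUL1, had an implied mean of 9213 in shikonin and 5005 in control, and changed by 0.88 ± 0.15 in the authors' deposited table. RBX1, the RING subunit, was 2.76-fold higher (2.18 to 3.51) by the authors' deposited table. ELOB and ELOC, the elongin adaptors, changed by 1.83 ± 0.18 and 1.64 ± 0.16 in the authors' deposited table.

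Of 24 genes that switch cullins on and off, tested or not, 11 were listed, 8 higher and 3 lower. Of all genes tested 50.2% were listed, and of all annotated protein-coding genes 34.7%. Of listed genes 50.8% were higher. NEDD8, the ubiquitin-like protein that activates cullins, was 2.72-fold higher (2.08 to 3.57) by the authors' deposited table, and its conjugating enzyme gene UBE2M changed by 0.78 ± 0.17. COP9 signalosome genes, which remove NEDD8, were listed 5 times and each was higher: COPS9, COPS6, COPS5, GPS1 and COPS3, at 1.66, 1.28, 0.86, 0.74 and 0.71 in the authors' deposited table. Ranked by log2 fold change among listed protein-coding genes of their length decile, these stood at percentiles 62.3, 62.4, 27.5, 35.0 and 22.7. CAND1, which exchanges receptors on CUL1, changed by -0.87 ± 0.15 in the authors' deposited table, and the NEDD8 ligase genes DCUN1D4 and DCUN1D1 by -0.94 ± 0.17 and -0.72 ± 0.18. The median mature length of this list was 1508 nt, against 3294 nt over all listed protein-coding genes. DCUN1D5, of the same family, changed by 0.74 ± 0.14. Among receptors under other symbols, 3 of 7 F-box genes were listed, all lower (BTRC, KDM2B and CCNF), and of 14 Kelch-BTB genes 4 were listed, 1 higher (KBTBD3) and 3 lower, among them IPP and KBTBD6. KEAP1, the Kelch receptor of NRF2, and SKP2 were not listed.

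**Figure D3:**
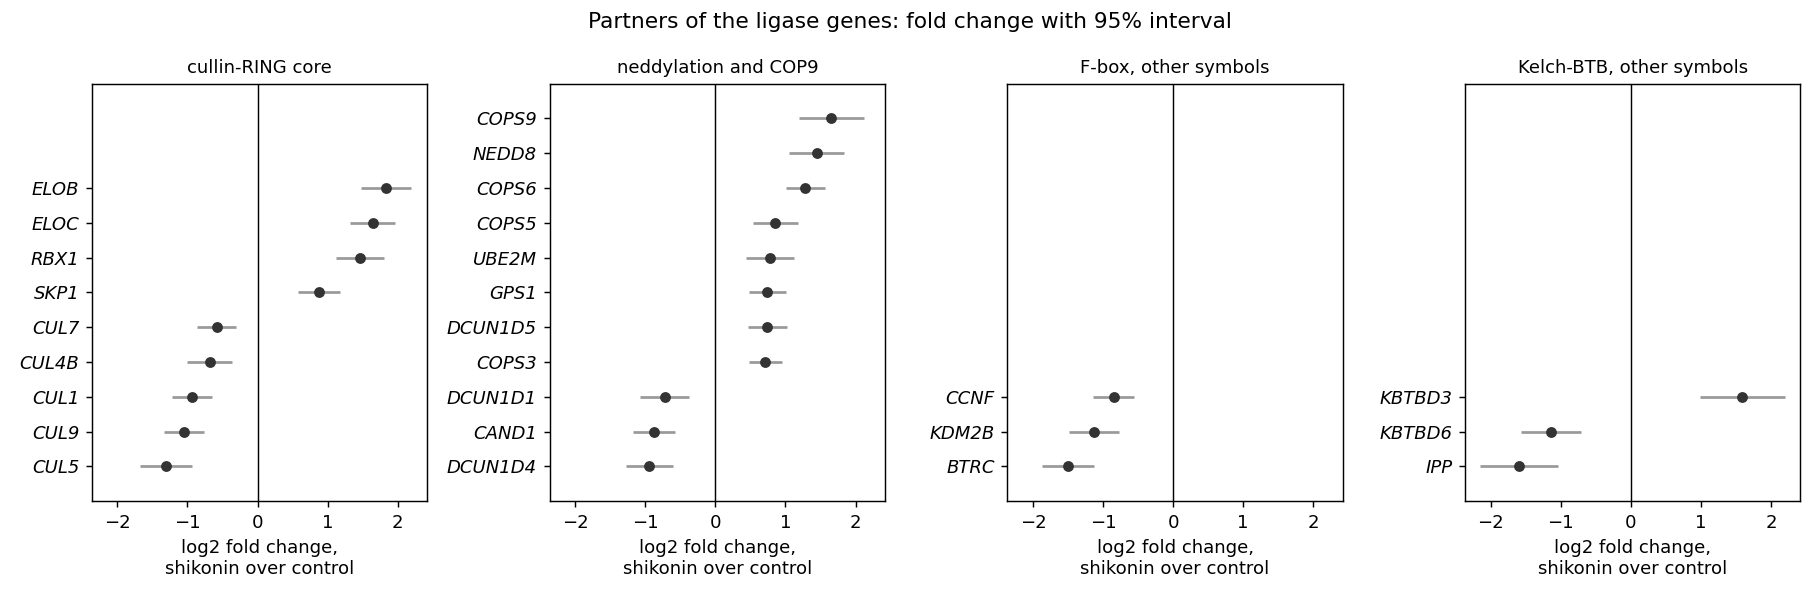
Log2 fold change, shikonin over control, of the partner genes reported here, from the authors' deposited table, with normal 95% intervals, in 4 panels by role. Cullins lie left of 0 and their adaptors, RBX1, NEDD8 and COP9 genes right of 0, with ELOB farthest right at 1.83.

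Higher members had shorter transcripts than lower ones in the RNF, TRIM and F-box families, as over the whole table. Those of the KLHL family did not, but only KLHL31 and KLHL15 were higher there, so a family difference is not shown. Members that were higher had a median mature length of 2493 nt, and members that were lower 4562 nt, against 1800 and 5334 nt for all listed protein-coding genes. Spearman's rho between length and log2 fold change was -0.55 across the 92 protein-coding members and -0.70 across 6920 listed protein-coding genes, all from the same 6 libraries. By family it was -0.69 for 24 RNF, -0.84 for 23 TRIM and -0.50 for 32 F-box genes, and 0.34 for 13 KLHL genes. With the transcript of the longest coding sequence in place of the principal one, these became -0.67, -0.84, -0.37 and 0.09. Of members under 2000 nt, 10 of 11 were higher, with RNF224 the exception, against 95.2% of 2118 listed genes of that length. From 4000 to 6000 nt 2 of 22 members were higher, and from 6000 nt 2 of 22, against 16.0% and 5.82% of listed genes. The long members that rose were FBXO48, KLHL31, FBXO30 and KLHL15.

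Between 2000 and 4000 nt a smaller share of members than of all listed genes was higher. Of 37 members in that class 11 were higher (29.7%, exact 95% interval 15.9 to 47.0), against 1150 of 1887 listed protein-coding genes (60.9%, 58.7 to 63.2). With the longest coding sequence as the guide to length the counts were again 11 of 37, against 58.9%. Neither comparison is matched for length within the class. Across the length deciles that the class spans, the share of listed protein-coding genes that were higher fell with length. From short to long, that share was 81.3%, 63.9% and 32.03%, and many members of the class lay in the last of these deciles. The part of length in the difference between 29.7% and 60.9% was not tested. By family the class held 1 of 7 RNF, 5 of 10 TRIM, 5 of 16 F-box and 0 of 4 KLHL genes as higher. Ranked by log2 fold change within length deciles of all listed protein-coding genes, where 50.1 is the median of all, the median percentile was 46.6 for the members, 56.5 for RNF, 46.5 for TRIM, 45.9 for F-box and 29.7 for KLHL genes. Members are related genes and not replicates, the difference was not tested, and the part of length in the falls of the families was not tested. The untranslated 3′ end had a median of 1895 nt in the members and 1070 nt over listed protein-coding genes, and KLHL genes had the longest, at 2472 nt.

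**Figure D4:**
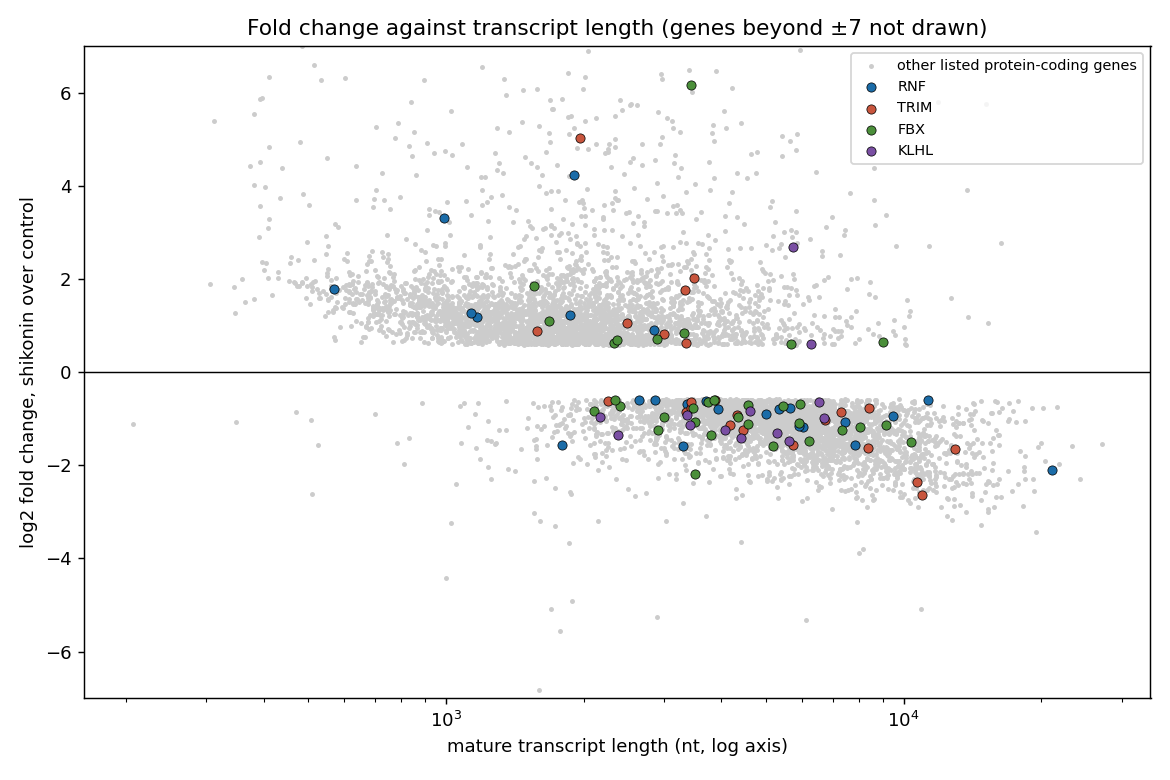
Log2 fold change, shikonin over control, from the authors' deposited table, against mature transcript length on a log axis, for the 92 protein-coding members in 4 colours over the other listed protein-coding genes in grey. Members under 2000 nt lie above 0 apart from RNF224, and most members from 4000 nt lie below 0. The empty band around 0 is the fold threshold of the table, and genes past 7 in size lie off the axis.

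Levels and neighbours bear on single values. Of 13 members with a mean below 100 normalized counts in the authors' deposited table, 10 were higher, against 816 of 1111 listed genes below that level, and the median mean of higher members was 175 against 502 for lower ones. Implied control means were below 10 for 5 members, FBXW10, RNF223, TRIM54, KLHL31 and RNF225, which are also the 5 with the largest log2 fold changes. Another protein-coding gene overlaps 30 of the members in GENCODE 29, and without these 30 the share higher was 27.0% (17 of 63) over all members, 38.9% (7 of 18) for RNF and 15.4% (2 of 13) for TRIM genes. RNF207 overlaps the ribosomal protein gene RPL22 on the opposite strand, FBXO31 overlaps MAP1LC3B, and FBXO45 overlaps WDR53, which changed by 1.41, 1.31 and 1.71 in the authors' deposited table while the members fell. KLHL18, TRIM25 and TRIM14 fell too, and overlap KIF9, C17orf67 and NANS, which rose. Other members fell together with a listed coding gene on the opposite strand. These were RNF111 with SLTM, RNF169 with XRRA1, FBXL14 with WNT5B and FBXO11 with MSH6, over 20786 to 54609 bp. Whether shared reads enter the values of any of these pairs was not tested. RNF208 and RNF224, 5689 bp apart on chromosome 9, changed in opposite directions. Only genes that changed are held, so whether a marker was listed cannot check the cell type. Of 19 marker genes 8 were listed: VIM, EPCAM, KRT8, KRT18, KRT19 and PDGFRB as higher, and FN1 and ERBB2 as lower. CD44, AXL, ESR1, PGR, PTPRC and CD3E were not listed, which does not show whether they were expressed.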

How the data were processed

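Total RNA of MDA-MB-231 cells was sequenced from 3 shikonin and 3 control libraries (NEBNext Ultra kit), per the labels' protocols. Tools named in the submitters' processing notes are DESeq2, fastp and HISAT2 2.0.5, with hg38 as the build. The read counter, its use of strand and the annotation were not given in the sources used here. Per the file headers, the authors' deposited table holds a mean normalized count (a signal: size-factor-scaled counts averaged over the 6 libraries), a log2 fold change, its standard error, a Wald score equal to their ratio, a p-value and an adjusted p-value. Raw counts per sample were not analysed here, so the planned edgeR test, replicate block and leave-one-out fits were not run, and the authors' DESeq2 test is the test throughout. The members and lists were chosen with earlier results of these data known.

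Computed here, in Python 3.11.15 with pandas 2.3.3 and scipy 1.17.1: counts, exact binomial intervals at 95%, normal fold intervals at 95%, implied group means, and the number tested from the adjusted p, p and rank of the 50 smallest p-values. The estimate of the number tested was run on simulated p-values. The implied means were run on simulated means built by the same formula. That run checks the arithmetic only and cannot show how closely the formula holds for counts. GENCODE 29 (GRCh38), matched by Ensembl identifier for 93 of 93 members, gave positions and lengths, with length taken from the longest transcript tagged principal by APPRIS. Lengths can be wrong under that choice, so the transcript of the longest coding sequence was also used. Promoters came from RefSeq (GRCh38.p14). Named members were, per family, the 4 largest changes each way with a mean of at least 10, those nearest the threshold and a list of genes with known roles. Others are named by range, and exceptions chosen after their values were seen are the subgroups, near-copies, overlaps, neighbours and the substrates set beside their ligase. Shares were recomputed under 8 alternatives. A few genes are not reported here.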

Additional observations from a re-analysis of the deposited data

How the results depend on the processing

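No paired analysis was possible because the table holds no values per sample, and for the same reason neither leave-one-out fits nor a second count test could be run. The share of members higher in shikonin was recomputed with at least 2-fold change, an adjusted p below 0.001, a mean of at least 100, an implied mean of 10 or more in each group, equal implied totals, other symbols added and protein-coding members only, and, chosen after seeing the data, without members that overlap another coding gene. Over all members it moved out of its interval of 18.2 to 37.1% only with equal implied totals, where it was 17.1%, and for F-box genes likewise, at 11.5% beside 28.1% as deposited. In that alternative only higher genes can leave the count, by its construction. RNF, TRIM and KLHL shares stayed inside their wide intervals in all 8 alternatives, but some moved by over 1.5 times: RNF to 46.2% at 2-fold, TRIM to 15.4% without overlapping members and 19.0% with equal implied totals, F-box to 17.4% at an adjusted p below 0.001, and KLHL to 9.09% at that adjusted p and 8.33% with the mean, implied mean and equal totals alternatives. Of 57 named members, 51 stayed past 1.5-fold with equal implied totals, and FBXO48, FBXO44, KLHL15, RNF227, TRIM16 and TRIM61 did not. At an adjusted p below 0.001, 46 of the 57 remained. Depth per library is unknown, and genes with implied control means below 10 have folds with wide intervals.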

Other observations

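Other RING ligase genes, with symbols outside the 4 families, were listed for 42 of 82. Of all genes tested 50.2% were listed, and of all annotated protein-coding genes 34.7%. How many of the 82 were tested is not held. Of these 7 were higher and 35 lower, against 50.8% of all listed genes higher. Their median log2 fold change was -1.11, against 0.60 over all listed genes, and their median mature length 5272 nt. BIRC3 and CBL, ligases of cell death and receptor signalling, were 4.82-fold (95% interval 3.87 to 5.99) and 4.58-fold (3.52 to 5.95) lower by the authors' deposited table. MYLIP, which marks the LDL receptor for degradation, was 4.20-fold higher (3.35 to 5.28) by the authors' deposited table. CBLC changed by 4.40 ± 1.88 on the log2 scale in the authors' deposited table, on a mean of 3.46 normalized counts. MDM2, the p53 ligase, and its partner MDM4, picked after their values were seen, changed by -1.38 ± 0.16 and -1.04 ± 0.18 in the authors' deposited table. Of the other TRIM genes by name, MID2 and MID1 were listed, both lower, at -1.31 ± 0.24 and -0.59 ± 0.17 in the authors' deposited table. Among partners of the linear ubiquitin ligase, SHARPIN changed by 0.81 ± 0.15 and OTULIN by -1.18 ± 0.17 in the authors' deposited table, and RNF31, its catalytic subunit, was not listed.

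Genes of textbook substrates were listed for 18 of 30, tested or not, with 6 higher and 12 lower. Of all genes tested 50.2% were listed, and of all annotated protein-coding genes 34.7%. Of listed genes 50.8% were higher. NFKBIA and LRP6 had the largest falls, at -2.34 ± 0.15 and -2.09 ± 0.22 in the authors' deposited table, and AURKB and CRY1 the largest rises, at 1.24 ± 0.16 and 1.16 ± 0.15. A substrate's message is no measure of its degradation.

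Of the 5 members with implied control means below 10, 4 are set here beside the next protein-coding gene upstream. FBXW10 lies 7905 bp after TRIM16L and RNF223 lies 7510 bp after C1orf159, each on the same strand. These neighbours changed by 0.85 and 0.64 in the authors' deposited table. For TRIM54 the neighbour, DNAJC5G at 892 bp, was not listed, and for KLHL31 the nearest one on either strand, LRRC1, lies 128788 bp away and was not listed either. The part of transcription from these neighbours in the members' values was not tested.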
